A study of Mus musculus with 6 samples.

Results

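The IL-10 and IL-4 receptor pathways, described here through 10 genes, are the main cytokine routes that quiet inflammatory output in macrophages and microglia. The genes were chosen by name, as the cytokine Il10, its receptor subunits Il10ra and Il10rb, the IL-4 and IL-13 receptor subunits Il4ra and Il13ra1, the transcription factors Stat3 and Stat6, and the target genes Socs3, Arg1 and Retnla. All 10 were found by their Ensembl identifiers among the 26789 genes of the deposited table. IL-10 binds a receptor of IL-10RA and the widely shared IL-10RB chain, and the kinases JAK1 and TYK2 on those chains activate STAT3. IL-4 and IL-13 bind IL-4RA paired with IL-13RA1, or for IL-4 with the common gamma chain, and activate STAT6. In the brain, microglia and border macrophages carry both receptors, and the program driven by STAT6 is often called alternative activation.

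Microglia were taken at postnatal day 15 from the rostral nucleus of the solitary tract (NST), the first taste relay of the brainstem, of control mice and of mice whose mothers ate a low-sodium diet from embryonic day 3 to 12 (E3–E12 diet mice), which the sample labels call the low sodium diet group. The study names C57Bl/6 mice as controls, bought or bred in house, and both sexes were used. During that window the mothers of E3–E12 diet mice drank distilled water, after it they and their pups received standard chow and tap water, and controls ate standard chow throughout. Each library was a pool of 6 littermates of 1 litter, and there were 3 libraries per group. The spread is therefore that between litters together with the handling of each pool, which cannot be told apart. The study's methods describe papain dissociation and magnetic sorting on CD11b, whereas the text deposited with the data names laser microdissection, so the isolation method is uncertain. The values are normalized counts per gene, whose totals ran from 9407141 to 17204618 per library. Control replicate 2 had the highest total and the most genes listed at 0, with 39.7% of the table against 12.9% to 26.6% in the other libraries. All 9 microglia markers, among them Csf1r, P2ry12, Tmem119 and Sall1, were above 0 in every library, and their summed level ran from 100740 to 508370 normalized counts, lowest in E3–E12 diet replicate 1 and highest in control replicate 2. The 6 border macrophage markers, led by Mrc1, were also above 0 in every library. Markers of cells outside the myeloid lineage were present too. Their summed levels ran from 4386 to 40915 normalized counts for oligodendrocytes and from 311 to 8348 for astrocytes. For mural cells and fibroblasts they ran from 835 to 15379. The choroid plexus marker Ttr ran from 3.37 to 38517 normalized counts. The part of such cells in the levels of the pathway genes was not tested.

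STAT proteins bind short palindromes, and 2 promoter stretches that hold such letters are shown here. They belong to Socs3 and Retnla, a STAT3 and a STAT6 target, the only genes whose windows held a match. STAT3 favours the spacing TTCNNNGAA and STAT6 the spacing TTCNNNNGAA, both of which read the same on either strand as patterns. RefSeq promoter windows of 300 bases (250 before and 50 after the start of the gene, GRCm38.p6) were held for 6 of the 10 genes, namely Il4ra, Il13ra1, Stat3, Stat6, Socs3 and Retnla. The Socs3 window held the STAT3 spacing, 154 to 146 bases before the start, and the Retnla window held the STAT6 spacing, 145 to 136 bases before the start. The capitals mark the match, and the strand is that of the gene.
Socs3: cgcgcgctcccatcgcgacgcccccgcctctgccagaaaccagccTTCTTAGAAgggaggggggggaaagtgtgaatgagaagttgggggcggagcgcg
Retnla: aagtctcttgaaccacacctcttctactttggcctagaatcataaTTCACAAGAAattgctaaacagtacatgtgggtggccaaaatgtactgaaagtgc
The Socs3 stretch is chr11:117969467-117969565 on the minus strand. It lies before the coding transcript and inside an intron of a non-coding Socs3 transcript in the annotation. The Retnla stretch is chr16:48842419-48842518 on the plus strand, before the first exon. The other windows held neither pattern. Each window was searched for both spacings. Among all 32851 promoter windows of the same length, 8.30% held the STAT3 spacing, 6.95% the STAT6 spacing and 14.6% either of them.

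Per kilobase, Stat3, Il10ra, Stat6 and Il10rb were the most abundant of the genes chosen by name, and Il10, Retnla and Arg1 the least. Low levels were common but not general among targets of IL-4 and STAT6. Of the others read here, Mrc1, Klf4 and Kdm6b had means of 954, 1315 and 3015 normalized counts per kilobase. The rest had means from 0.912 (Pparg) to 106 (Ccl24). Levels of different genes were compared per kilobase of the longest annotated coding transcript. By the median of the 6 libraries, Stat3 stood first with 980 normalized counts per kilobase, followed by Il10ra with 755, Stat6 with 669 and Il10rb with 636. Socs3 came next with 375, then Il4ra with 172 and Il13ra1 with 106. Il10 (52.2), Retnla (50.9) and Arg1 (39.0 normalized counts per kilobase) were the lowest. Neighbours in this order were not separated beyond their spread across libraries. Stat3 was above Il10ra in 4 of 6 libraries and Il10ra above Stat6 in 3 of 6, with mean log2 differences per kilobase of 0.13 ± 1.05 and -0.11 ± 0.95 (SD, n = 6 libraries). Il4ra and Il13ra1, the neighbours with the largest mean log2 difference per kilobase, differed by 1.23 ± 1.35, with Il4ra higher in 5 of 6 libraries. Percentiles among all genes of the table were taken on normalized counts, without correction for length. Stat3 and Stat6 lay at or above the 96.3rd percentile in every library, and Il10ra at or above the 92.9th. Il10 lay between the 32.8th and the 71.1st percentile, Retnla between the 24.1st and the 76.0th, and Arg1 between the 19.9th and the 60.4th.

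**Figure D1:**
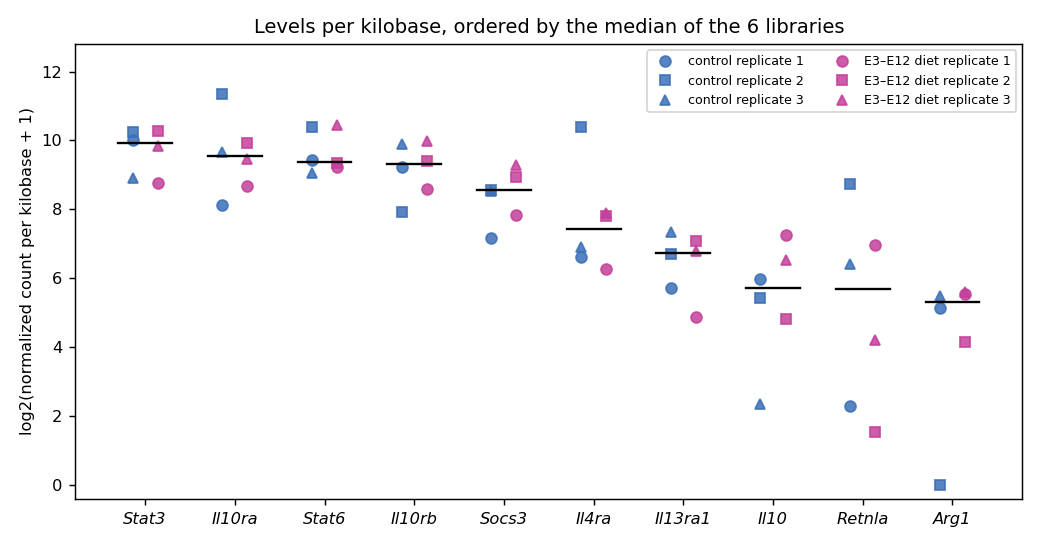
Levels of the 10 genes per kilobase of transcript on a log2 scale (normalized count per kilobase + 1), in order of their median over the 6 libraries (bar), with 1 symbol per library. Stat3, Il10ra, Stat6 and Il10rb overlap between 240 and 2628 normalized counts per kilobase, and the cytokine Il10 and the targets Retnla and Arg1 lie lowest and spread most.

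The diet comparison asked whether microglia of E3–E12 diet mice differed from controls in any of these genes. None of the 10 passed the adjusted threshold of 0.1, which the study also used (limma on log2(normalized count + 1), two-sided, Benjamini-Hochberg over 18007 genes, adjusted p = 0.999 for each), and none had an unadjusted p under 0.05. Over all genes tested, 0 passed the adjusted threshold (0% of genes). Their smallest adjusted p was 0.225, and an unadjusted p under 0.05 was found for 327 of them (1.82%). The study, which used DESeq2, reported genes past its threshold in both directions and described anti-inflammatory gene families as downregulated. None of the 10 genes is among those it lists. In each of the 10 genes the 2 groups overlapped, where 5.90% of all genes did not (2.99% higher and 2.91% lower in E3–E12 diet libraries). Of the 10 genes, 5 had a higher and 5 a lower mean log2 level in E3–E12 diet mice. Their median log2 fold change was -0.027, beside 0.087 for all genes tested and their median standard error (SE) was 0.88. The 95% interval of each of the 10 genes contained both 1 and -1 on the log2 scale, so a change to 2 times or 0.5 times the control level was not detectable with these libraries. Fold changes are on the log2(normalized count + 1) scale, where the added 1 affects the size of changes in genes as low as Il10, Arg1 and Retnla. With 0.5 or 8 added instead, the log2 fold change was 2.06 or 0.83 for Arg1. It was 1.67 or 1.31 for Il10 and -1.61 or -1.18 for Retnla. In bulk libraries such as these, fewer cells of a type and less RNA per cell cannot be told apart.

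**Figure D2:**
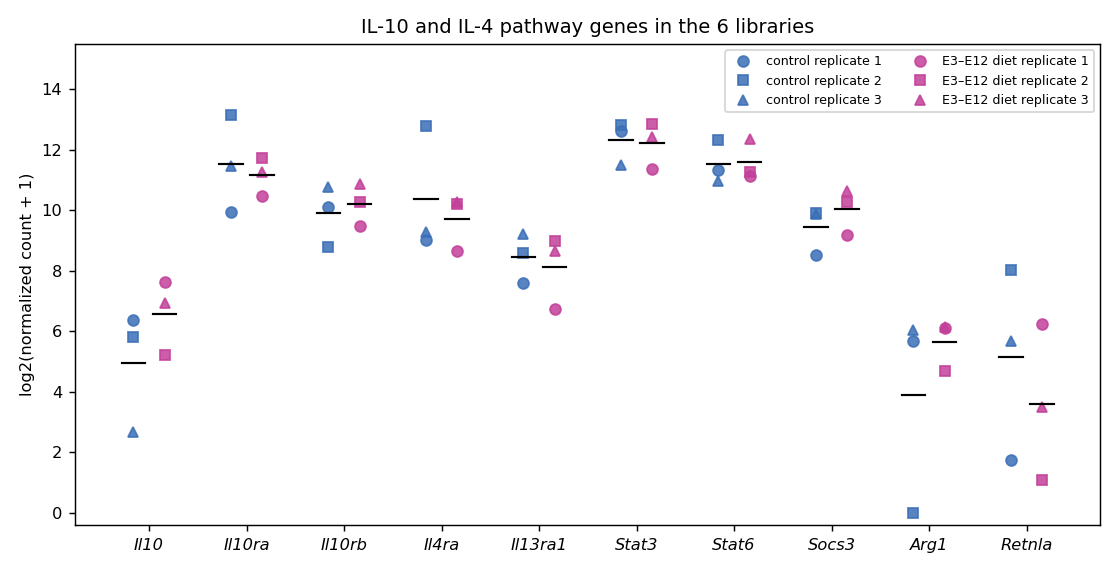
Normalized counts of the 10 genes on a log2 scale (normalized count + 1), with 1 symbol per library and the mean log2 level of each group as a bar. Controls (blue) and E3–E12 diet mice (magenta) overlap in every gene, and control replicate 2 is the highest library for Il10ra, Il4ra and Retnla and is at 0 for Arg1.

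Il10 (chr1:131019845-131024974, plus strand, GRCm38) encodes the cytokine itself, which in the brain is made by few cells. Control replicates 1, 2 and 3 gave 81.5, 55.1 and 5.43 normalized counts of Il10, and E3–E12 diet replicates 1, 2 and 3 gave 198, 36.0 and 120. The highest library was an E3–E12 diet library and the lowest a control, but E3–E12 diet replicate 2 lay below 2 of the controls. The means were 118 ± 81.0 against 47.4 ± 38.6 normalized counts (SD, n = 3 libraries each, E3–E12 diet first), and the difference of the mean log2 levels, the log2 fold change used throughout, was 1.63 (SE 1.17, 95% interval from -1.16 to 4.43, exact permutation p = 0.4). Without control replicate 3 the log2 fold change of Il10 was 0.50. The ligands of the other arm were close to absent. Il4 was at or below 9.87 normalized counts in 5 libraries and reached 31.0 in E3–E12 diet replicate 3. Il13 was listed at 0 in 5 libraries and had 35.2 in E3–E12 diet replicate 1. Il4 and Il13 had means under 10 normalized counts and were not tested.

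Il10ra (chr9:45253837-45269149, minus strand), the subunit that gives the IL-10 receptor its specificity, was at 985, 9194 and 2831 normalized counts in the controls, against 1431, 3405 and 2448 in E3–E12 diet mice, in replicate order. All 3 E3–E12 diet libraries fell inside the range of the controls, which 1 library stretched upward. The log2 fold change was -0.37 (SE 0.93, 95% interval from -2.59 to 1.86, exact permutation p = 0.8), and 0.45 without control replicate 2. Il10rb (chr16:91406164-91425834, plus strand), which also serves the receptors of IL-22 and type III interferons, was at 1105, 444 and 1760 normalized counts in the controls, against 710, 1247 and 1859 in E3–E12 diet mice, in replicate order. Control replicate 2, the highest library for Il10ra, was the lowest for Il10rb. The log2 fold change of Il10rb was 0.31 (SE 0.75, 95% interval from -1.49 to 2.11), and -0.24 without control replicate 2. Il10rb overlaps the annotated gene Gm21970, with which it shares 19.5% of its 50-base windows, so reads of the pair could have been split.

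Il4ra (chr7:125552120-125579474, plus strand), the chain common to the IL-4 and IL-13 receptors, was at 517, 7040 and 627 normalized counts in the controls, against 398, 1177 and 1246 in E3–E12 diet mice, in replicate order. Control replicate 2 lay far above every other library, and the remaining 5 lay between 398 and 1246. The control mean of 2728 ± 3735 normalized counts, beside 941 ± 471 in E3–E12 diet mice, rested on that library. The log2 fold change of Il4ra was -0.65 (SE 1.15, 95% interval from -3.40 to 2.09, exact permutation p = 0.8), and 0.55 without control replicate 2. Il13ra1 (chrX:36112110-36171259, plus strand), the partner chain that admits IL-13, was at 192, 382 and 594 normalized counts in the controls, against 106, 501 and 405 in E3–E12 diet mice. Its groups overlapped widely (log2 fold change -0.34, SE 0.83, 95% interval from -2.33 to 1.65). The common gamma chain Il2rg was at 133, 57.5 and 150 normalized counts in the controls, against 334, 92.3 and 415 in E3–E12 diet mice (log2 fold change 1.15, SE 0.80, unadjusted p = 0.197 from limma), and it shares 42.0% of its 50-base windows with another annotated gene. Il20rb, a chain of the receptors of IL-20 relatives, had 70.9 to 238 normalized counts, with the 2 groups overlapping (log2 fold change 0.72, SE 0.63).

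Because a factor common to all genes of a library leaves a ratio of 2 genes as it is, the balance of the subunits was also read within libraries. The ratio of Il10ra to Il10rb normalized counts was 0.891, 20.7 and 1.61 in the controls, against 2.01, 2.73 and 1.32 in E3–E12 diet mice, in replicate order. The ratio of Il4ra to Il13ra1 was 2.69, 18.4 and 1.06 in the controls and 3.78, 2.35 and 3.08 in E3–E12 diet mice. Control replicate 2 stood apart in both ratios, and the other libraries stayed within 0.891 to 2.73 and 1.06 to 3.78. The groups overlapped in both ratios. Across the 6 libraries Il10ra and Il4ra had the most similar log2 levels of any pair of the 10 genes (Pearson r = 0.912), and Il4ra and Arg1 the most opposed (r = -0.919). These correlations describe 6 libraries whose cell type markers and totals differ, each library giving both genes of a pair, and control replicate 2 was the highest for Il10ra and Il4ra and the lowest for Arg1.

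Some cell type markers were also highest in control replicate 2, as Il10ra and Il4ra were, and others were lowest there. Csf1r, the microglial growth factor receptor, had 280070 normalized counts in control replicate 2 and between 48984 and 140890 in the other libraries, and 5 of the 9 microglia markers were highest there. Over all genes tested, 26.3% were highest and 38.2% were lowest in that library. All 6 neutrophil markers were highest there too, with a summed level of 3612 normalized counts against 472 to 700 in the other libraries. 5 of the 6 border macrophage markers were highest there, with a sum of 19951 against 5220 to 8514, whereas for the sixth, Pf4, the controls lay above all E3–E12 diet libraries. The 5 endothelial markers summed to 4538 there, against 7514 to 12338 elsewhere, and they did not move together. Flt1, Cdh5 and Vwf were lowest in that library (Vwf at 26.3 normalized counts, and at least 1224 elsewhere), whereas Cldn5 and Pecam1 were highest (Pecam1 at 3154, and 1399 to 2067 elsewhere). The part of these markers in the values of Il10ra and Il4ra was not tested. The next values are per 1000 normalized counts of the summed microglia markers, a scaling chosen after the values were seen. Csf1r was the largest of these markers in every library, with 280070 of 508370 normalized counts in control replicate 2. On that scale Il10ra was at 9.77, 18.1 and 11.7 in the controls, against 14.2, 14.6 and 7.88 in E3–E12 diet mice. The highest library was then 2.30 times the lowest for Il10ra, against 9.34 times in normalized counts. For Il4ra the same spread went from 17.7 times to 5.37 times, with control replicate 2 still the highest. The spread also narrowed for Il13ra1, from 5.63 to 3.25 times, for Socs3, from 4.37 to 3.01 times, and for Retnla, from 228 to 152 times. It widened for Il10rb, from 4.19 to 12.6 times, and for Il10, from 36.4 to 87.9 times. It also widened for Stat3, from 2.84 to 5.26 times, and for Stat6, from 2.65 to 3.14 times.

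**Figure D3:**
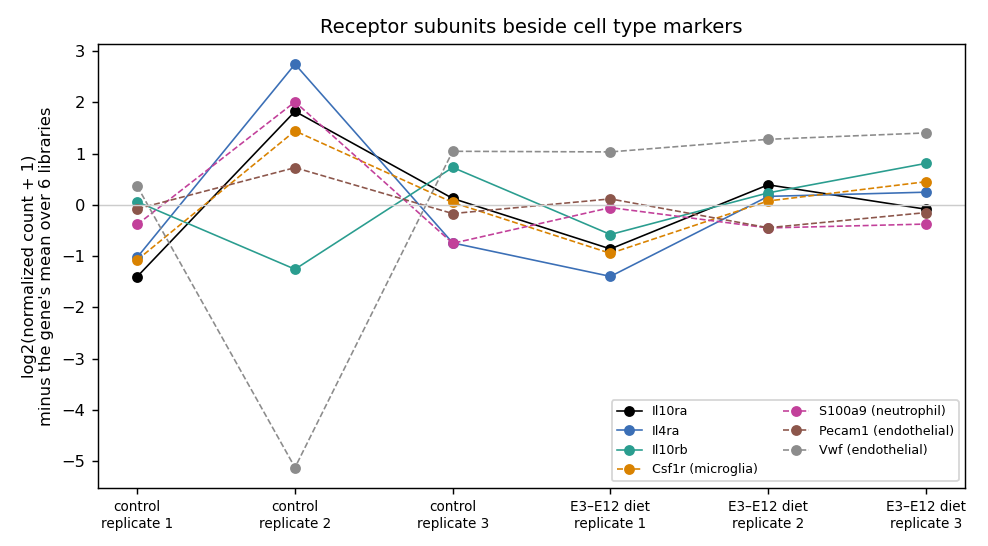
Log2 level (normalized count + 1) of 3 receptor subunits (solid lines) and 4 cell type markers (dashed lines) in each library, minus the mean of that gene over the 6 libraries. In control replicate 2, Il10ra, Il4ra, Csf1r, S100a9 and the endothelial marker Pecam1 are highest, and Il10rb and Vwf, the latter also endothelial, are lowest, with 444 and 26.3 normalized counts.

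Stat3 (chr11:100885098-100939540, minus strand) and Stat6 (chr10:127642986-127660957, plus strand), which carry the IL-10 and the IL-4 signal to the nucleus, had the smallest ratio of the highest to the lowest library among the 10 genes, 2.84 and 2.65. Stat3 was at 6304, 7281 and 2887 normalized counts in the controls, against 2610.0, 7409 and 5543 in E3–E12 diet mice, in replicate order. Each group held libraries at both ends of the range (log2 fold change -0.10, SE 0.70, 95% interval from -1.77 to 1.57). Stat6 was at 2598, 5115 and 1992 normalized counts in the controls, against 2258, 2454 and 5280.0 in E3–E12 diet mice. Its log2 fold change was 0.048 (SE 0.67, 95% interval from -1.56 to 1.66), and its groups had nearly equal means of 3331 ± 1691 and 3235 ± 1656 normalized counts (E3–E12 diet first). The ratio of Stat3 to Stat6 lay between 1.05 and 3.02 in all 6 libraries. The Janus kinases that serve these receptors were also expressed. Jak1, used by both receptors, had between 1311 and 3721 normalized counts, and Jak3, which sits on the common gamma chain, between 666 and 1351. Tyk2, which sits on IL-10RB and was named after its values were seen, was at 254, 295 and 169 in the controls, against 81.7, 304 and 24.6 in E3–E12 diet mice (log2 fold change -1.44, SE 0.97).

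Socs3 (chr11:117966079-117970047, minus strand), whose promoter stretch is shown above, is a target of STAT3 that inhibits signalling by some cytokine receptors. It was at 365, 968 and 945 normalized counts in the controls, against 577, 1246 and 1598 in E3–E12 diet mice, in replicate order. The highest pair were E3–E12 diet libraries and the lowest a control, and E3–E12 diet replicate 1 lay below 2 of the controls. The means were 1140 ± 519 and 759 ± 342 normalized counts (E3–E12 diet first, log2 fold change 0.59, SE 0.71, 95% interval from -1.11 to 2.30, exact permutation p = 0.4). The log2 fold change of Socs3 stayed positive with each library left out in turn, between 0.13 and 1.02. Socs3 was also read per 1000 normalized counts of the summed microglia markers, of which Csf1r was the largest. It was then at 3.62, 1.90 and 3.89 in the controls, against 5.73, 5.35 and 5.14 in E3–E12 diet mice. On that scale, chosen after the values were seen, the groups of Socs3 alone among the 10 genes did not overlap, where 2.22% of all genes did not, 0.983% of them higher in E3–E12 diet mice. In the fit across all genes scaled to the mean log2 level of the same markers, Socs3 was not called (log2 fold change 0.81, SE 0.84, adjusted p = 1 from limma).

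Arg1 and Retnla are classic targets of IL-4 and STAT6 in macrophages. Arg1 (chr10:24915221-24927484, minus strand), the arginine-degrading enzyme arginase 1, was at 50.3, 0 and 64.9 normalized counts in the controls, against 67.7, 24.7 and 69.8 in E3–E12 diet mice. Apart from control replicate 2, where it was listed at 0, Arg1 lay within 24.7 to 69.8. Its log2 fold change of 1.74 (SE 1.65, 95% interval from -2.20 to 5.67) rested on that 0 and was -0.22 without control replicate 2. Retnla (chr16:48842551-48844461, plus strand), the secreted protein also called FIZZ1, was at 2.35, 258 and 50.6 normalized counts in the controls, against 74.1, 1.13 and 10.4 in E3–E12 diet mice. Each group held libraries near 0 and libraries above 50, and the highest library was 228 times the lowest (log2 fold change -1.54, SE 1.90, 95% interval from -6.08 to 3.0, exact permutation p = 0.5). With 1 library left out the log2 fold change of Retnla ran from -3.24 (without control replicate 1) to -0.11 (without control replicate 2). Retnla was highest in control replicate 2, as were the neutrophil gene Retnlg, with 389 normalized counts there against 45.3 to 59.7 elsewhere, and Chil3, another STAT6 target, with 160 against 5.97 to 32.0, both named after their values were seen. The part of other myeloid cells in these values was not tested.

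**Figure D4:**
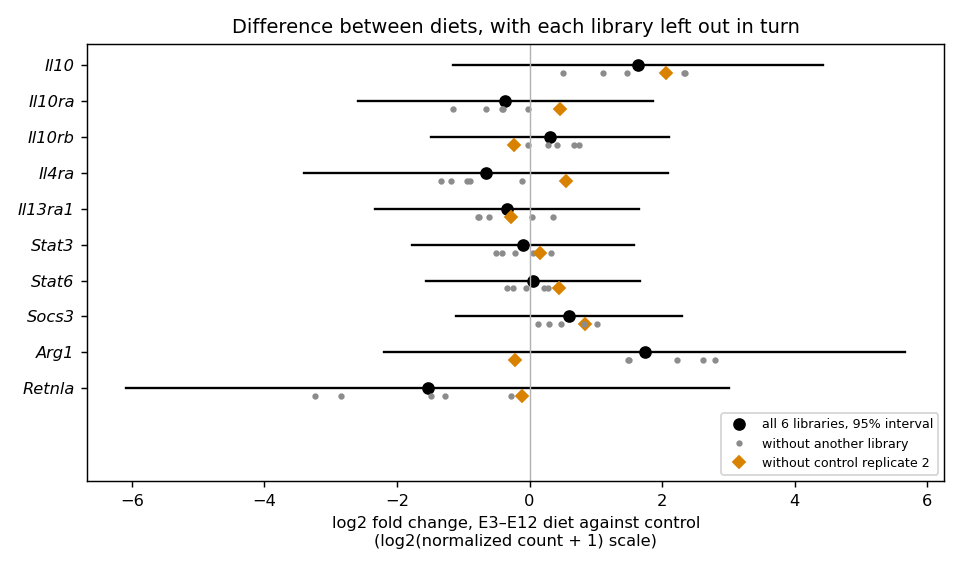
Log2 fold change between E3–E12 diet mice and controls for each of the 10 genes (log2(normalized count + 1) scale), with its 95% interval from limma, and the value with each library left out in turn (small symbols). Every interval spans 0, and leaving out control replicate 2 (orange) moves Il10ra, Il10rb, Il4ra, Stat3 and Arg1 to the other side of 0.

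The wider pathway was read from lists of ligands, receptor subunits, Janus kinases and STATs, feedback inhibitors, targets of either arm and other receptors that use STAT3. Of 62 genes besides the 10, 58 were in the table and 47 passed the filter on low values. None passed the adjusted threshold and none had an unadjusted p under 0.05 in either direction (limma, smallest unadjusted p = 0.073), where such a p was reached by 0.95% of all genes upward and 0.866% downward. 20 had a higher and 27 a lower mean log2 level in E3–E12 diet mice, with a median log2 fold change of -0.10 beside 0.087 for all genes tested. The groups did not overlap in 4 of the 47 genes (8.51%, against 5.90% of all genes). Of these, 2 were higher in every E3–E12 diet library and 2 were lower.

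Bcl3, a nuclear IκB protein through which IL-10 restrains inflammatory genes, was at 78.5, 62.4 and 71.9 normalized counts in the controls, against 191, 90.9 and 231 in E3–E12 diet mice, in replicate order (log2 fold change 1.16, SE 0.61, unadjusted p = 0.10 from limma). Clec10a, a lectin of alternatively activated macrophages, was at 77.3, 109 and 185 normalized counts in the controls, against 565, 254 and 213 in E3–E12 diet mice (log2 fold change 1.42, SE 0.68, unadjusted p = 0.0754 from limma). Bcl3 was tight among the controls and more spread in E3–E12 diet mice, whereas for Clec10a 1 E3–E12 diet library stood above the others. 10.6% of the 50-base windows of Clec10a also occur in its neighbour Mgl2. Zfp36, which encodes the mRNA-destabilizing protein tristetraprolin, was at 15393, 23123 and 36831 normalized counts in the controls, against 7034, 15108 and 6822 in E3–E12 diet mice. Every E3–E12 diet library was lower, with E3–E12 diet replicate 2 close to control replicate 1 (log2 fold change -1.39, SE 0.65, unadjusted p = 0.0730 from limma). The study, with DESeq2, lists Zfp36 among the genes lower in E3–E12 diet mice. Zfp36 is also induced by cell dissociation. The 10 other dissociation response genes, such as Fos, Jun and Egr1, had a median log2 fold change of -0.18, 4 of them above 0 and 6 below. They ran from -2.20 for Atf3 (SE 1.04) to 0.53 for Hspa1a, both named after their values were seen. The study also lists Atf3 among the genes lower in E3–E12 diet mice. The part of dissociation in the Zfp36 values was not tested. Socs2, a feedback inhibitor of growth hormone and STAT5 signalling, was at 276, 317 and 562 normalized counts in the controls, against 274, 219 and 158 in E3–E12 diet mice (log2 fold change -0.79, SE 0.60, unadjusted p = 0.229 from limma), so that the first E3–E12 diet library nearly touched the first control. Each of these genes had an adjusted p of 0.999 (limma).

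**Figure D5:**
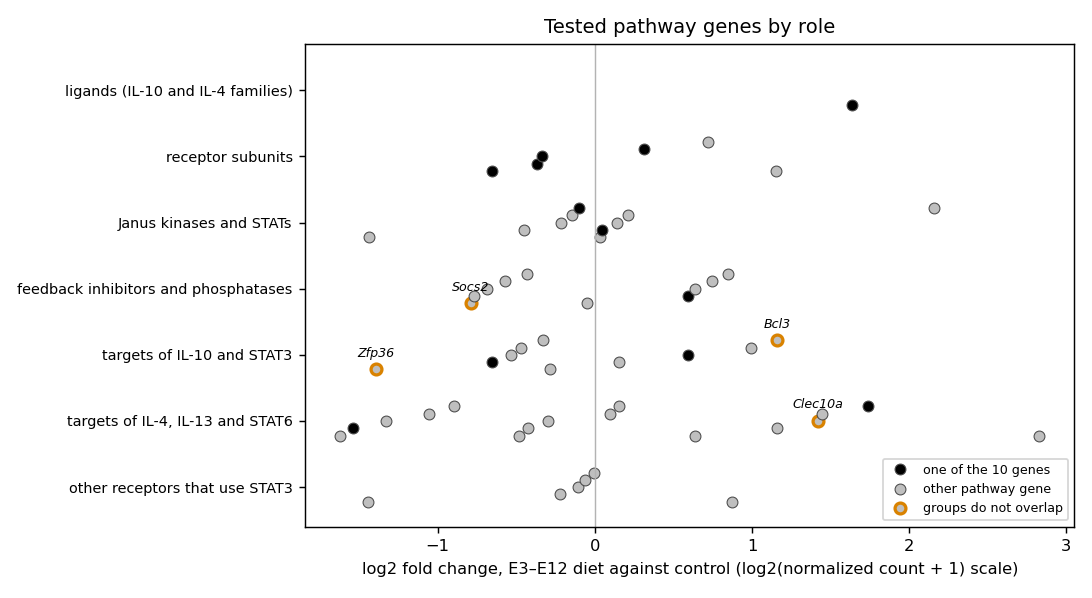
Log2 fold change between E3–E12 diet mice and controls (log2(normalized count + 1) scale) of the tested pathway genes, 1 row per role, with the 10 genes in black, other genes in grey and an orange rim where the groups did not overlap. A gene with more than 1 role appears in each row, every role except the ligands, where Il10 alone was tested, spreads to both sides of 0, and Bcl3, Clec10a, Zfp36 and Socs2 are the genes without overlap.

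Among the feedback inhibitors and phosphatases, all 10 were tested, 4 with a higher and 6 with a lower mean log2 level in E3–E12 diet mice. Per kilobase the most abundant were Ptpn1, the phosphatase PTP1B that acts on Janus kinases, with a mean of 599 normalized counts per kilobase, and Ptpn6, the phosphatase SHP-1, with 407. Ptpn1 was highest in control replicate 2, at 6545 normalized counts against 1142 to 2465 elsewhere, the same library in which Il10ra and Il4ra were highest. Ptpn6 spread from 233 to 2337 normalized counts within the controls alone (log2 fold change -0.57, SE 1.05). The targets of IL-10 and STAT3 held the most abundant pathway gene, Dusp1, a phosphatase of MAP kinases that also responds to dissociation, with 19013 to 100900 normalized counts. Among the targets of IL-4 and STAT6, 8 were higher and 8 lower on the log2 scale. Kdm6b, a histone demethylase, was at 13390, 43671 and 7354 normalized counts in the controls, against 12965, 19753 and 23223 in E3–E12 diet mice (log2 fold change 0.16, SE 0.80), and Klf4, a transcription factor, had 1606 to 6317 over all libraries with the 2 groups overlapping. Of the receptors that share STAT3 with IL-10, Il6st, which encodes the gp130 subunit, had 71315 normalized counts in control replicate 2 and between 3295 and 6428 in the other 5 libraries. Csf3r, the receptor of granulocyte colony-stimulating factor, had 1679 to 8466 normalized counts, without a difference beyond the spread (log2 fold change -0.10, SE 0.80).

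The genes with a pattern most like that of each of these genes were sought among the 18007 tested, by Pearson correlation of log2 levels over the 6 libraries, for the 9 genes above 0 in all of them. Hexa, a lysosomal hexosaminidase subunit, was nearest to Il10ra (r = 0.997), followed by Maf1 and Nek6 (r = 0.996 each). Mettl3, an RNA methyltransferase, was nearest to Il4ra (r = 0.995), Serpine2 to Socs3 (r = 0.994), Pigb to Stat3 (r = 0.998) and Zfp644 to Stat6 (r = 0.987). The number of genes with r above 0.95 was 255 for Il4ra, 163 for Il10ra, 123 for Il10rb, 74 for Il13ra1, 32 for Socs3, 25 for Stat6, 17 for Retnla and 12 each for Stat3 and Il10. A search of 18007 genes over 6 libraries also returns correlations this high between unrelated genes. How many such genes to expect was not computed, so the genes named here are a description and not shown to be partners.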

How the data were processed

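RNA-seq was read from 6 libraries, 3 control and 3 E3–E12 diet. The authors deposited normalized counts per gene, a signal that is never negative and not whole. Low values were not whole multiples of 1 factor per library, so reads were not recovered and the depth of each library is unknown. The study gives only a range of reads per sample, after amplification of the RNA. The submitters' processing notes list FastQC, STAR, featureCounts, DESeq2 and the build GRCm38. The table's name mentions surrogate variables, an adjustment the methods do not describe. Libraries were assigned by their titles. Symbols (26507 of 26789 identifiers), lengths and positions came from GENCODE M21 (GRCm38), promoter sequences from RefSeq (GRCm38.p6).

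Genes whose mean reached 10 normalized counts were fitted as log2(normalized count + 1) with limma 3.58.1 (R 4.3.3), two-sided, Benjamini-Hochberg over all 18007 genes, threshold 0.1, after a test on simulated data. Permutation tests were exact, and 3 libraries against 3 cannot go below p = 0.1. Intervals are limma's 95% intervals. Trimmed mean of M values (TMM) factors were computed on the deposited values. Other pathway genes were named if past a threshold, not overlapping between groups, or the 2 most abundant per kilobase of their list, the 10 genes aside. Tyk2 and Chil3 were added after their values were seen. The 10 genes and all lists were chosen with earlier results of these data known.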

Additional observations from a re-analysis of the deposited data

How the results depend on the processing

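No alternative called any of the 10 genes (smallest adjusted p = 0.866 over 15 alternatives), and of 149 values of the 10 genes under them, 134 kept their direction. The alternatives were pseudocounts of 0.5 and 8, no filter or a mean of at least 50 (which left Arg1 untested), TMM factors, quantile normalization, limma with trend, the replicate number as a block, each library left out in turn and, added after the data were seen, scaling to the microglia markers. Stat3 turned to a log2 fold change of 0.069 after quantile normalization and 0.12 after scaling to the microglia markers. With 1 library left out, the log2 fold change ranged from -0.51 to 0.33 for Stat3, -0.34 to 0.44 for Stat6, -1.16 to 0.45 for Il10ra, -0.24 to 0.75 for Il10rb, -1.33 to 0.55 for Il4ra, -0.77 to 0.36 for Il13ra1 and -0.22 to 2.80 for Arg1. Il10 (0.50 to 2.34), Socs3 (0.13 to 1.02) and Retnla (-3.24 to -0.11) kept their direction. The direction turned without control replicate 1 for Stat3 and Stat6, control replicate 3 for Il13ra1 and Stat6, E3–E12 diet replicate 1 for Il13ra1 and Stat3, and E3–E12 diet replicate 3 for Il10rb and Stat6. Leaving out control replicate 2 turned 5 of the 10 genes, and the median log2 fold change of the 10 went from -0.027 to 0.30.

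With a mean of at least 50, 1 gene was called, in none of the pathway lists, and 207 genes had an unadjusted p under 0.05. That count was 491 after quantile normalization and 108 after scaling to the microglia markers, and 276 to 539 with 1 library left out, while 0 genes were called. Of the pathway genes, 1 had an unadjusted p under 0.05 after quantile normalization (Ccl22) and 1 with trend (Zfp36), and 0 to 1 with 1 library left out. Quantile normalization moved the median log2 fold change of all genes from 0.087 to -0.0034, and scaling to the microglia markers moved it to 0.31. Same-numbered libraries of the 2 groups deviated together with correlations of 0.260, 0.0348 and 0.142 across genes. For differently numbered libraries the correlations ran from -0.25 to 0.0869. So few values cannot settle whether the numbers pair the libraries. With the replicate block 0 genes were called, 468 had an unadjusted p under 0.05, 0 of them in the pathway lists, and no member turned (Stat6 0.048, Stat3 -0.10). The depth of each library, not recovered here, limits what the low values of Il10, Arg1 and Retnla can show.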
